A study of Mus musculus with 9 samples.

Results

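The cholesterol and fatty acid genes described here are 36 genes of sterol synthesis, sterol sensing, fatty acid synthesis, sterol uptake and storage, and sterol efflux. They were listed by symbol, and each had to reach at least 10 normalized counts in at least 3 of the 9 libraries. All 36 of the 36 listed passed, among 14404 of 42454 genes that passed in all. The study sequenced RNA from macrophages sorted as Ly6C low and MHC class II positive from the lamina propria of the colon, the connective tissue beneath the gut epithelium, of mice aged 6 weeks. There were 3 libraries each from WT, p47phox-/- and gp91phox-/- mice. The proteins p47phox and gp91phox, encoded by Ncf1 and Cybb, are an organizer and the catalytic subunit of the phagocyte NADPH oxidase, the enzyme that makes superoxide, and the study asked about the role of reactive oxygen species in these macrophages. The labels give no strain, sex, construct or pooling of animals, and do not say whether each library came from its own animal, so the p-values speak to the spread among these libraries, part of which may be technical.

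Cholesterol is built from acetyl-CoA through mevalonate, isoprenoid units, squalene and lanosterol. When membrane sterol is low, SCAP escorts the SREBP transcription factors to the Golgi for cleavage, and the released factors switch on the synthesis genes, while INSIG proteins hold the complex back when sterol is plentiful. The LXR nuclear receptors sense oxysterols, the oxidized derivatives of cholesterol, and switch on efflux transporters, the ubiquitin ligase Mylip, Srebf1 and Scd1. Tissue macrophages take up much lipid with the cells they engulf, free it in lysosomes, and store it as esters or export it.

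Recovered reads ran from 31141107 to 52797368 per library. Of the targeted genes, Ncf1 lay between 8990 and 10815 normalized counts in WT, between 2718 and 3733 in p47phox-/- and between 12136 and 13617 in gp91phox-/-, while Cybb stood at 0 in each of the 9 libraries. So did the other genes of the X chromosome, 1362 in all, and the gp91phox-/- label could not be checked. The p47phox-/- replicates 2 and 3 stood apart with 14323 and 14268 genes holding a read, against 15825 to 18760 in the other libraries. All 14 macrophage markers exceeded 10 normalized counts in every library, and their sum was 808220 to 1054160 in WT, 937763 to 1251325 in p47phox-/- and 1013533 to 1203124 in gp91phox-/-. Cx3cr1 differed more than this sum, with 4995, 4060 and 5542 normalized counts in WT, 598, 5056 and 899 in p47phox-/-, and 24878, 17832 and 14745 in gp91phox-/-. At a limma adjusted p under 0.05, 1 of the 14 markers was higher in p47phox-/- than in WT, and 1 in gp91phox-/- than in WT. Between the knockouts, 2 were higher and 1 lower in gp91phox-/-. Other cells were also present in the RNA: 10 B cell markers summed to 14044 to 23957 in WT, 12193 to 20130 in p47phox-/- and 2002 to 2623 in gp91phox-/-, and 12 fibroblast and smooth muscle markers to 7005 to 9196, 11953 to 18591 and 10062 to 12121. In such bulk RNA, fewer cells of a type and less RNA per cell cannot be told apart.

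Counts of the genes were compared between genotypes with limma on log2(normalized count + 1), with Benjamini-Hochberg adjustment over the 14404 genes tested, and a gene was called at an adjusted p under 0.05. Fold changes are on that scale. In p47phox-/- versus WT, 0 of the 36 genes were called, where 1.12% of all genes tested were (edgeR also called 0 and DESeq2 2, and 11 of 36, or 30.6%, had an unadjusted limma p under 0.05, as did 15.02% of all genes). In gp91phox-/- versus WT, 1 of the 36 was called, which is 2.78% of the list against 7.05% of all genes. It was lower, where 4.53% of all genes were called lower and 2.53% higher. Between the knockouts, a comparison that also tests whether their differences from WT differ, 7 of the 36 were called (19.4% against 9.93% of all genes). Of these, 5 were higher in gp91phox-/- (3.97% of all genes were) and 2 lower (5.96%). The fibroblast markers were higher in sum in every library of either knockout than in every WT library. Genes holding a read numbered 15825 to 17280 in WT, 14268 to 17754 in p47phox-/- and 18115 to 18760 in gp91phox-/-. The part of these markers and of gene detection in the results was not tested. The 3 comparisons share libraries in pairs and are not independent. The median log2 fold change of the 36 genes was -0.16 in p47phox-/- versus WT, -0.01 in gp91phox-/- versus WT and 0.16 in gp91phox-/- versus p47phox-/-, beside -0.02, 0.01 and 0.02 for all genes tested.

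**Figure D1:**
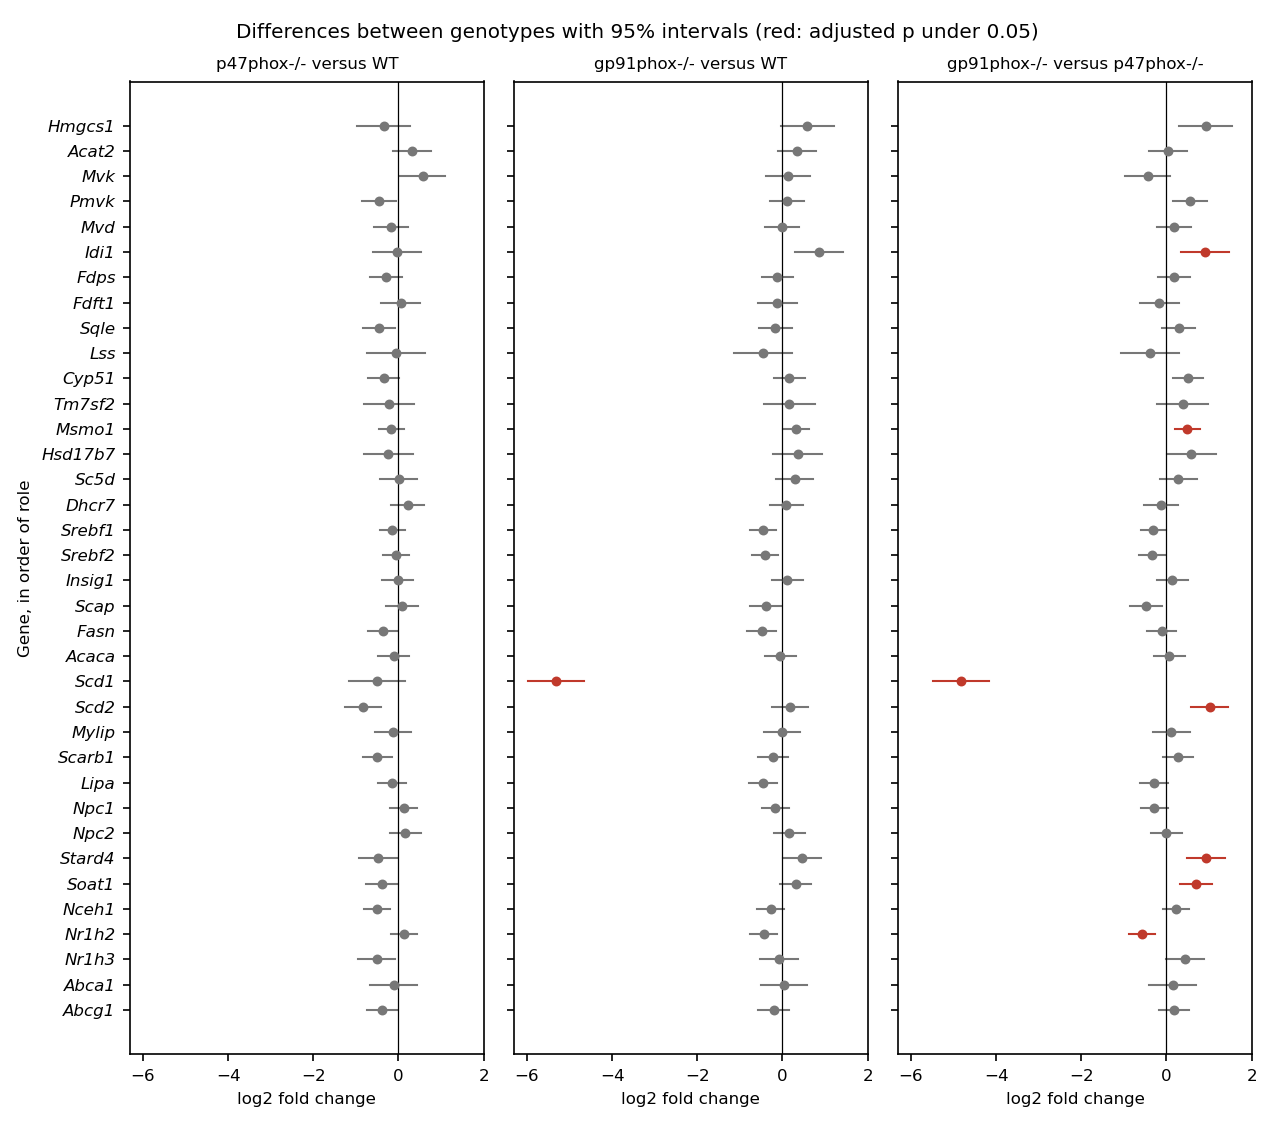
Log2 fold change (x axis) of each of the 36 genes (y axis, in order of role) with its 95% interval in the 3 comparisons, from limma, with genes at an adjusted p under 0.05 in red. Scd1 stands far to the left in both comparisons of gp91phox-/-, at -5.33 against WT and -4.83 against p47phox-/-.

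The largest difference in the list was in Scd1, the main stearoyl-CoA desaturase of lipogenic tissue, an endoplasmic reticulum enzyme that puts a double bond into saturated fatty acids (chromosome 19, 44394455 to 44407879, minus strand, protein-coding, GRCm38/mm10). Its normalized counts were 2136, 5397 and 3523 in the WT libraries, 2990, 2834 and 1699 in p47phox-/-, and 95.5, 82.7 and 76.9 in gp91phox-/-. The gp91phox-/- libraries lay together, far below all the others, and the WT and p47phox-/- libraries overlapped. Scd1 was 40.1-fold lower in gp91phox-/- than in WT (log2 fold change -5.33, SE 0.30, 95% interval -5.98 to -4.67, limma adjusted p = 9.178e-07). It was 28.4-fold lower than in p47phox-/- (-4.83, limma adjusted p = 1.964e-06), while p47phox-/- differed from WT by -0.50 (95% interval -1.15 to 0.15, limma adjusted p = 0.454). The lowest WT library was 22.4-fold above the highest gp91phox-/- library. The values rest on 13781 reads in the WT libraries together and on 328 in gp91phox-/-, between 86 and 137 a library. Both calls were kept in every alternative processing run, 23 for the comparison with WT and 24 for the comparison with p47phox-/-.

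Beside Scd1, the other cell types differed too. All 10 B cell markers were called lower in gp91phox-/- than in WT and than in p47phox-/-, and 2 of the 10, Cd79b and Cd22, stayed above 10 normalized counts in all 3 gp91phox-/- libraries. Cd79a, part of the B cell receptor, had 2892, 5299 and 2729 normalized counts in WT, 2412, 4439 and 2220 in p47phox-/-, and 5.46, 10.3 and 15.2 in gp91phox-/-. Markers of conventional dendritic cells summed to 4274 to 7696 in WT, 4683 to 6180 in p47phox-/- and 1688 to 2513 in gp91phox-/-. The plasma cell markers summed to 16057 to 32041, 13684 to 20388 and 8533 to 9489, and the T and innate lymphoid cell markers to 3175 to 3553, 3495 to 3870 and 1692 to 2748. WT replicate 2, the library with the highest Scd1, also had the highest B cell, plasma cell and dendritic cell marker sums of the WT group. The T and innate lymphoid sum was highest in WT replicate 3. Within p47phox-/-, replicate 1 had the highest Scd1 and plasma cell sum, but the B cell, dendritic cell and T cell sums were highest in replicate 2. Within gp91phox-/-, replicate 1 had the highest Scd1 and B cell sum, but not the highest plasma cell, dendritic cell or T cell sum. No marker of these 4 lists was at 0 in all 3 libraries of a group. Whether RNA of other cells contributed to the Scd1 difference was not tested. Scd1 was the 73rd of 652 genes called lower in gp91phox-/- versus WT by fold change and the 7th of 14404 by p-value. Of 9 other tested genes within 500 kb of it on chromosome 19, 0 were called in that comparison with limma. Among all genes 7.05% were, so 0 of 9 says little about this region. The log2 fold changes of the 9 ran from -0.40 to 0.90.

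**Figure D2:**
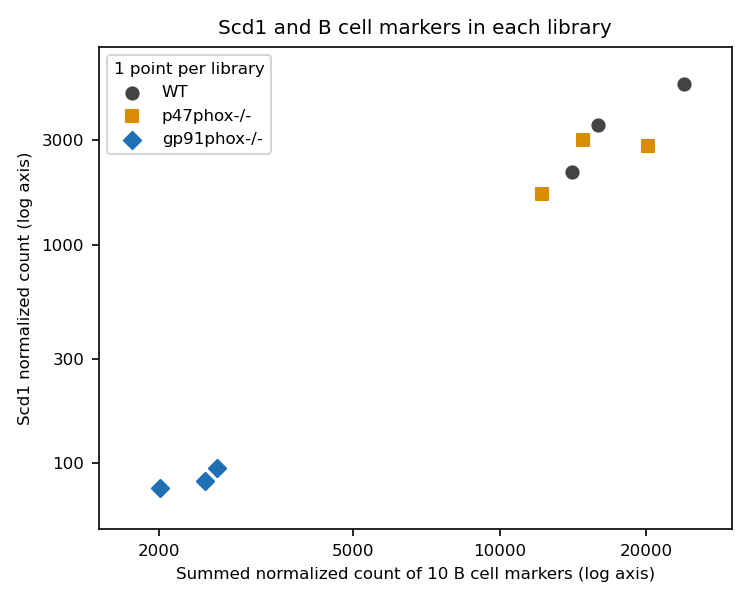
Scd1 normalized count (y axis, log scale) against the summed normalized count of 10 B cell markers (x axis, log scale), 1 point per library, coloured by genotype. The 3 gp91phox-/- libraries sit at 76.9 to 95.5 for Scd1 and 2002 to 2623 for the B cell sum, below all 6 others on both axes.

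Scd2, the neighbouring stearoyl-CoA desaturase gene and the form best known from brain, differed in another pattern (chromosome 19, 44293674 to 44306864, plus strand). The coding sequences of Scd1 and Scd2 are 1068 and 1077 bases long and 90.4% identical over the aligned bases. Of 1019 windows of 50 bases of Scd1 coding sequence, 145 (14.2%) occur unchanged in Scd2. Over all other annotated genes 21.9% of Scd1 windows are shared, the most with Scd3 (16.4%). A read end within such a window alone cannot be assigned to 1 of the genes, but the other end of the fragment may lie outside it. Exon bases outside the coding sequence were not compared. A stretch of 90 coding bases from the GENCODE M21 transcripts is printed, bases 76 to 165 of Scd1 and 85 to 174 of Scd2. The 29 bases that differ are in capitals. This stretch differs more than the coding sequences as a whole, where 965 of 1068 aligned bases are identical.
Scd1: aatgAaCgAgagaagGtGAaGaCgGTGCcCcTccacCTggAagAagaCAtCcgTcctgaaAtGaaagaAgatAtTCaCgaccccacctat
Scd2: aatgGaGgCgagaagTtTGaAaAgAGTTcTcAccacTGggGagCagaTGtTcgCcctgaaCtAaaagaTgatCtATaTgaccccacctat

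The normalized counts of Scd2 were 1758, 1378 and 2079 in WT, 1029.9, 746 and 1145 in p47phox-/-, and 2030.0, 2143 and 1659 in gp91phox-/-. All p47phox-/- libraries lay below all WT and gp91phox-/- libraries, and the latter groups overlapped. Scd2 was 2.02-fold higher in gp91phox-/- than in p47phox-/- (log2 fold change 1.01, SE 0.20, 95% interval 0.58 to 1.44, limma adjusted p = 0.007006). That call was lost in 1 of 24 alternatives, when p47phox-/- replicates 2 and 3 were left out together (limma adjusted p = 0.082). Against WT, p47phox-/- stood at -0.84 (limma adjusted p = 0.0656), which missed the threshold; DESeq2 gave an adjusted p of 0.00386. The gp91phox-/- difference from WT was 0.17, with a 95% interval of -0.25 to 0.60. The ratio of Scd1 to Scd2 reads was 1.22 to 3.92 in WT, 1.48 to 3.80 in p47phox-/- and 0.0386 to 0.0471 in gp91phox-/-. The other desaturase genes of the family were low: Scd3 had no read, and Scd4 no more than 9.55 normalized counts in any library.

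The other fatty acid genes, upstream of the desaturases, were not called in any comparison. Fasn, the fatty acid synthase, had 2150, 2473 and 2288 normalized counts in WT, 2082, 1652 and 1632 in p47phox-/-, and 1937, 1657 and 1375 in gp91phox-/-. All libraries of either knockout lay below all WT libraries, with log2 fold changes of -0.37 (limma adjusted p = 0.292) and -0.49 (limma adjusted p = 0.0856). Acaca, the acetyl-CoA carboxylase that makes malonyl-CoA, had 787 to 823 in WT, 600.2 to 873 in p47phox-/- and 696 to 841 in gp91phox-/-, and 71.2% of 50-base windows of its coding sequence also occur in the annotated gene Gm5182.

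The 16 sterol synthesis genes cover steps from the thiolase Acat2 and Hmgcs1, which makes HMG-CoA, to Dhcr7, which makes cholesterol. In p47phox-/- versus WT, 0 of 16 were called with limma and 3 of 16 (18.8%, beside 15.02% of all genes) had an unadjusted p under 0.05. Of their log2 fold changes, 5 of 16 were above 0, as were 47.3% of all genes, and the median was -0.17. Against WT, gp91phox-/- had 0 of 16 called with limma, 2 of 16 (12.5%, beside 21.7% of all genes) at an unadjusted p under 0.05, 11 of 16 above 0 (50.6% of all genes were) and a median of 0.14. Between the knockouts, 2 of 16 were called higher, or 12.5% against 3.97% of all genes called higher; 12 of 16 log2 fold changes were above 0, as were 51.5% of all genes, and the median was 0.28 beside 0.02 for all genes. The median kept its sign under each scaling tried.

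Idi1, the isopentenyl diphosphate isomerase of the isoprenoid steps, was called (chromosome 13, 8885501 to 8892451, plus strand). Its normalized counts were 189.8, 259.9 and 178 in WT, 264, 149 and 208 in p47phox-/-, and 361, 429 and 347 in gp91phox-/-. The gp91phox-/- libraries were the highest and did not overlap those of either other group, which overlapped each other. Idi1 was 1.87-fold higher in gp91phox-/- than in p47phox-/- (log2 fold change 0.90, SE 0.26, limma adjusted p = 0.04588), a call lost in 12 of 24 alternatives, among them without p47phox-/- replicate 2, without p47phox-/- replicate 3, without any 1 gp91phox-/- replicate, and without WT replicate 1 or WT replicate 3 (limma adjusted p up to 0.4 over all alternatives). Against WT it was 0.87, with a limma adjusted p of 0.0666, and it was called in 6 of 23 alternatives. Of its coding 50-base windows, 79.1% also occur in the annotated gene Gm13502, so its reads could be split.

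Msmo1, the methylsterol monooxygenase that removes methyl groups after lanosterol, was the other synthesis gene called (chromosome 8, 64718139 to 64733792, minus strand). It had 999, 1051 and 1084 normalized counts in WT, 844, 1015 and 941 in p47phox-/-, and 1269, 1431 and 1221 in gp91phox-/-. All gp91phox-/- libraries exceeded the other 6, and it was the least variable of the 36 genes within groups (SD 0.11 on the log2 scale). It was 1.40-fold higher in gp91phox-/- than in p47phox-/- (log2 fold change 0.49, SE 0.14, limma adjusted p = 0.04224). The call was lost in 13 of 24 alternatives, including leaving out any single library but p47phox-/- replicate 2 (limma adjusted p up to 0.176).

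Hmgcs1, the HMG-CoA synthase ahead of the mevalonate step, had 957, 1691 and 1281 normalized counts in WT, 1149, 609 and 1449 in p47phox-/-, and 2176, 1867 and 1711 in gp91phox-/-. Its lowest gp91phox-/- library was above its highest WT and p47phox-/- libraries. The difference from p47phox-/- was 0.92 on the log2 scale (SE 0.29, 95% interval 0.30 to 1.55), and missed the threshold with a limma adjusted p of 0.0614; it passed with TMM scaling (0.044), without p47phox-/- replicate 3 (0.0304) and with DESeq2 (0.0212). Mvk, the mevalonate kinase, had the highest log2 fold change of the 36 in p47phox-/- versus WT, with 218, 312 and 195 normalized counts in WT, 289, 372 and 403 in p47phox-/-, and 262, 223 and 298 in gp91phox-/- (log2 fold change 0.57, limma adjusted p = 0.298). The WT and p47phox-/- libraries of Mvk overlapped.

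Promoters were compared for the 27 of 36 genes with an entry in the RefSeq table (GRCm38.p6), over the 250 bases before each annotated start. The sterol regulatory element TCACNCCAC, which SREBPs bind, was searched on both strands and found in 1.05% of 32851 promoters and in 1 of 34 promoters of the list, that of Hmgcs1. CCAAT, the box bound by the factor NF-Y that works beside SREBPs, was found in 33.8% of all promoters and 64.7% of those of the list, in 21 genes. The LXR response element, searched as AGGTCA repeated after a gap of 4 bases without mismatch, was in 0.0152% of all and in 0 of the list. That exact form was in only 5 of 32851 promoters, so its absence says little about LXR sites in these genes. Looser forms were not searched. The promoters of Hmgcs1, with both elements, of Soat1, with CCAAT alone, and of Nr1h2, with neither, are printed as examples. Hmgcs1 and Soat1 were higher in every gp91phox-/- library than in every WT library, and Nr1h2 lower. CCAAT also lay in promoters of Srebf1, Srebf2, Fasn, Lipa and Lss, which were lower in every gp91phox-/- library, while Acat2, higher in each, had none. Scd1, Scd2 and Stard4, which were called, had no entry. Capitals mark TCACCCCAC and CCAAT on either strand (ATTGG where it lies on the other). Positions are bases from the first capital to the start.
Hmgcs1 (chr13:119690101-119690350, plus strand): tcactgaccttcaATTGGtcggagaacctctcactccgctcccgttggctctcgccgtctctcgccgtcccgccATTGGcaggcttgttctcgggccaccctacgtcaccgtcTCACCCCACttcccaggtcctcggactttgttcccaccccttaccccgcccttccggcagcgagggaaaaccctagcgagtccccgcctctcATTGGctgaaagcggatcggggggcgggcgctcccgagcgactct
Soat1 (chr1:156474329-156474578, minus strand): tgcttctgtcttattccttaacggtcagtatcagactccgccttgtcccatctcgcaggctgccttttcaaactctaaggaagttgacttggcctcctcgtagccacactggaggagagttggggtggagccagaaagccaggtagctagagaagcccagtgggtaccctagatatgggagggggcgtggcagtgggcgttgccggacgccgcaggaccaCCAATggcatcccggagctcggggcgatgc
Nr1h2 (chr7:44553966-44554215, minus strand): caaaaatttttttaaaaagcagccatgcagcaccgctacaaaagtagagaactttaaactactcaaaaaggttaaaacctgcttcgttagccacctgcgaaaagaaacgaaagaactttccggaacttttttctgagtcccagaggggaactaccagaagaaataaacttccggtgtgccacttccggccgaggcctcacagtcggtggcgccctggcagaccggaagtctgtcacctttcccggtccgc

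In Hmgcs1 the TCACCCCAC lies 137 bases before the start and CCAAT boxes lie 237, 176 and 45 bases before it, and in Soat1 the CCAAT lies 30 bases before it. A match describes letters only, and no match says only that these letters are not in this window.

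The remaining sterol synthesis genes were not called in any of the 3 comparisons. In p47phox-/- all libraries of Pmvk, the phosphomevalonate kinase, of Sqle, the squalene epoxidase, and of Cyp51, the lanosterol demethylase, lay below all WT libraries, with log2 fold changes of -0.46, -0.46 and -0.35. Sqle and Cyp51 were also higher in every gp91phox-/- library than in every p47phox-/- library, by 0.29 and 0.50. Lss, the lanosterol synthase, had 248 to 275 normalized counts in WT, 144 to 345 in p47phox-/- and 153 to 211 in gp91phox-/-, and its difference from WT in gp91phox-/- was -0.45 (95% interval -1.13 to 0.23). Hsd17b7, a sterol ketoreductase, had 153 to 212 in WT and 223 to 260.2 in gp91phox-/-, with no overlap (0.35, limma adjusted p = 0.492). For Acat2, the diphosphate and squalene synthases Fdps and Fdft1, Mvd, Tm7sf2, Sc5d and Dhcr7, the smallest limma adjusted p in p47phox-/- versus WT was 0.443 and in gp91phox-/- versus WT 0.378. Of these, 72.7% of coding windows of Acat2, 93.9% of Fdps and 33.0% of Fdft1 also occur in other annotated genes, so their counts are uncertain.

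**Figure D3:**
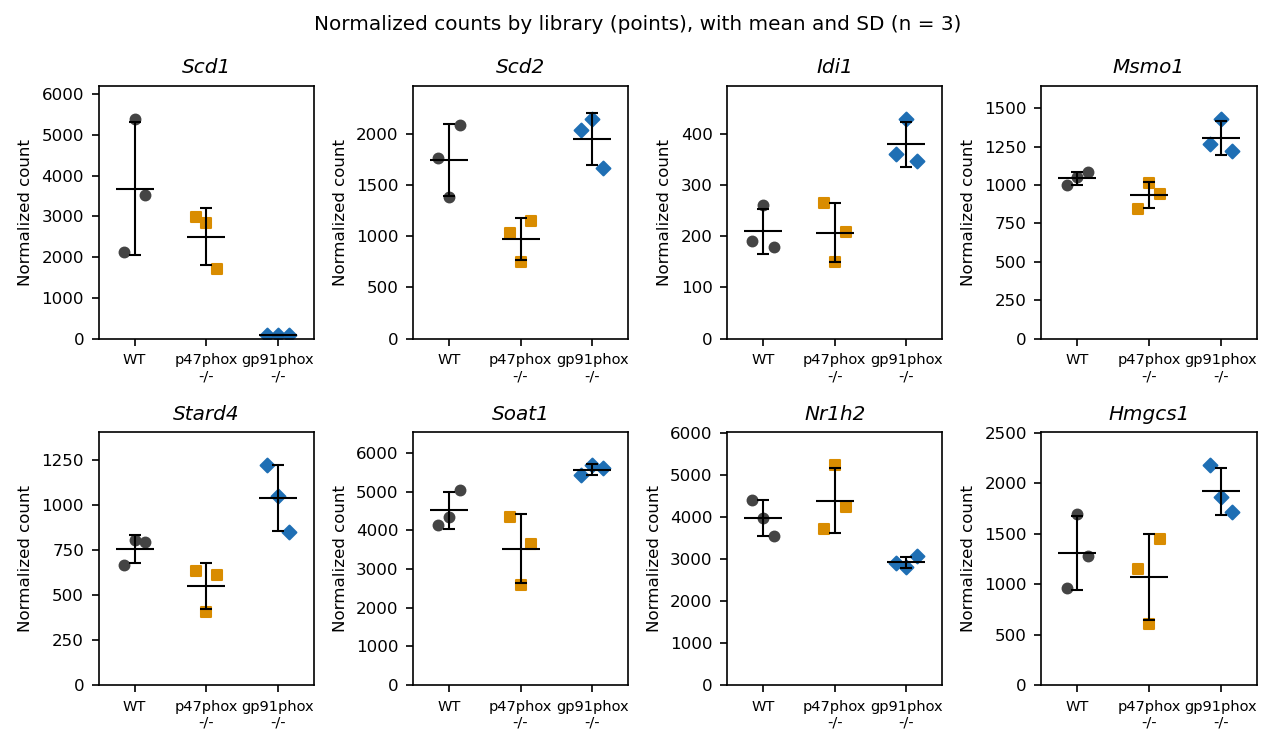
Normalized counts (y axes, linear) of the 7 called genes and Hmgcs1 in each genotype, 1 point per library with the mean and SD of 3. Scd1 is near the bottom of its axis in all 3 gp91phox-/- libraries, while Scd2 is lowest in p47phox-/-.

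The 4 genes of SREBP control were not called in any comparison. Srebf1, the gene of SREBP-1, had 3217, 2333 and 2588 normalized counts in WT, 2505, 2464 and 2348 in p47phox-/-, and 1957, 1875 and 2048 in gp91phox-/-. The gp91phox-/- libraries lay below all others, by -0.46 on the log2 scale against WT (95% interval -0.75 to -0.16, limma adjusted p = 0.0658), the nearest miss in that comparison. Srebf2, the gene of SREBP-2, which mainly drives sterol synthesis, had 7063, 7847 and 7313 in WT, 8148, 5938 and 7322 in p47phox-/-, and 6189, 5614 and 4975 in gp91phox-/- (-0.41 against WT, limma adjusted p = 0.109). Scap, the escort protein, had 1415, 1301 and 1541 in WT, 1361, 1559 and 1586 in p47phox-/-, and 1369, 1041 and 869 in gp91phox-/-, with a log2 fold change of -0.48 against p47phox-/- (limma adjusted p = 0.0958). Insig1 differed less, with 4036 to 4931 in WT and 3897 to 5612 in gp91phox-/- (0.11, 95% interval -0.25 to 0.48). The median of the 4 was -0.40 in gp91phox-/- versus WT, beside 0.01 for all genes, with 1 of 4 above 0. The synthesis genes and their regulators had medians of opposite sign in gp91phox-/- versus WT; neither group held a called gene there.

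Among the uptake, lysosome, transport and storage genes, 2 of 8 were called, both higher in gp91phox-/- than in p47phox-/-, or 25% against 3.97% of all genes called higher. Stard4, a carrier that moves cholesterol between membranes (chromosome 18, 33199355 to 33213862, minus strand), had 668, 803 and 796 normalized counts in WT, 634, 404 and 614 in p47phox-/-, and 1220.2, 1049 and 849.8 in gp91phox-/-. The 3 groups did not overlap, with p47phox-/- lowest and gp91phox-/- highest. Stard4 was 1.90-fold higher in gp91phox-/- than in p47phox-/- (log2 fold change 0.93, SE 0.20, limma adjusted p = 0.01369). The call was lost in 4 of 24 alternatives, among them without gp91phox-/- replicate 1 (0.0603) and without gp91phox-/- replicate 2 (0.0534).

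Soat1, which esterifies cholesterol for storage in droplets (chromosome 1, 156424525 to 156474331, minus strand), had 4148, 4356 and 5052 normalized counts in WT, 4359, 2583 and 3647 in p47phox-/-, and 5426, 5682 and 5622 in gp91phox-/-. All gp91phox-/- libraries were above all others, and WT and p47phox-/- overlapped. It was 1.62-fold higher than in p47phox-/- (log2 fold change 0.69, SE 0.17, limma adjusted p = 0.0247). The call was lost in 7 of 24 alternatives, among them without p47phox-/- replicate 3 (0.0529) and without any 1 gp91phox-/- replicate (0.0576 to 0.081). With p47phox-/- replicates 2 and 3 left out together, Scd1 was the only one of the 7 genes still called, and Soat1 had a limma adjusted p of 0.292.

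Nceh1, the esterase that reverses this storage, had 4785, 4083 and 5774 in WT, 3351, 3482 and 3412 in p47phox-/-, and 4398, 4119 and 3490.5 in gp91phox-/-. All p47phox-/- libraries lay below all others (-0.50 against WT, limma adjusted p = 0.122). Scarb1, the high-density lipoprotein receptor, was lower than in every WT library in all libraries of both knockouts, by -0.49 in p47phox-/- (limma adjusted p = 0.161, and 0.0258 without p47phox-/- replicate 2) and by -0.22 in gp91phox-/- (limma adjusted p = 0.472). Lipa, the lysosomal acid lipase that frees cholesterol from esters, had 9184.8, 9104 and 10687 in WT, 8512, 7648 and 9865 in p47phox-/-, and 8404, 6864 and 6019 in gp91phox-/-, with all gp91phox-/- libraries below all WT libraries (-0.45, limma adjusted p = 0.0959). Npc1 and Npc2, which pass cholesterol out of the lysosome, and Mylip, the ligase that degrades lipoprotein receptors, gave limma adjusted p-values of at least 0.569 in gp91phox-/- versus WT and at least 0.680 in p47phox-/- versus WT.

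Of the LXR receptors and efflux transporters, 1 of 4 was called, lower in gp91phox-/- than in p47phox-/-, where 5.96% of all genes were called lower. Nr1h2, the gene of LXR-beta (chromosome 7, 44549616 to 44553951, minus strand), had 4406, 3988 and 3546 normalized counts in WT, 3712, 5236 and 4237 in p47phox-/-, and 2898, 2813 and 3071 in gp91phox-/-. The gp91phox-/- libraries were below all others. It was 1.49-fold lower than in p47phox-/- (log2 fold change -0.57, SE 0.14, limma adjusted p = 0.02692). The call was lost in 8 of 24 alternatives, among them without p47phox-/- replicate 2 (0.0596) or 3 (0.0639) and without any 1 gp91phox-/- replicate (0.0608 to 0.0963). Nr1h3, the gene of LXR-alpha, had 1531, 1640 and 1234 in WT, 1105, 1238 and 784 in p47phox-/-, and 1101, 1502 and 1594 in gp91phox-/-, with log2 fold changes of -0.51 (limma adjusted p = 0.262) and -0.08 against WT.

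The efflux transporters did not pass the test. Abca1, which loads cholesterol onto apolipoprotein A-I, had 20294, 14662 and 26778 normalized counts in WT, 27047, 13829 and 16914 in p47phox-/-, and 18738, 19549 and 23507 in gp91phox-/-. The groups overlapped, with log2 fold changes of -0.11 (95% interval -0.66 to 0.44) and 0.04 (-0.51 to 0.59) against WT. Abcg1, which exports sterol to high-density lipoprotein, had 3019, 2484 and 3727 in WT, 2002, 2444 and 2552 in p47phox-/-, and 2675, 2348 and 2892 in gp91phox-/- (-0.39 and -0.21, limma adjusted p = 0.296 and 0.525).

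The level of the genes, as normalized counts per kilobase of exon, spanned a wide range. Npc2 was highest, with a WT mean of 5897, followed by Abca1 at 1986, Lipa at 1425, Insig1 at 1421 and Mylip at 1335, so the highest were genes of lysosomal handling, efflux and regulation. The lowest WT means were those of synthesis genes, Lss at 23.9, Hsd17b7 at 37.6, Acaca at 47.1 and Idi1 at 59.7. This order depends on the length used, that of all annotated exons together, 10.8 kb for Lss. Without division by length, Lss had a WT mean of 258, above Hsd17b7 at 192 and Idi1 at 209. Sequence that Acaca and Idi1 share with other annotated genes could also split their reads. In gp91phox-/- Scd1 was lowest, at a mean of 17.4, below Lss at 17.6. The spread within groups was greatest for Scd1 (SD 0.47 on the log2 scale), Hmgcs1 (0.45), Lss (0.42) and Abca1 (0.39). Of the 3 gp91phox-/- libraries, replicate 3 was the lowest for 25 of 36 genes, and of the p47phox-/- libraries, replicate 2 was the lowest for 16 of 36.

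**Figure D4:**
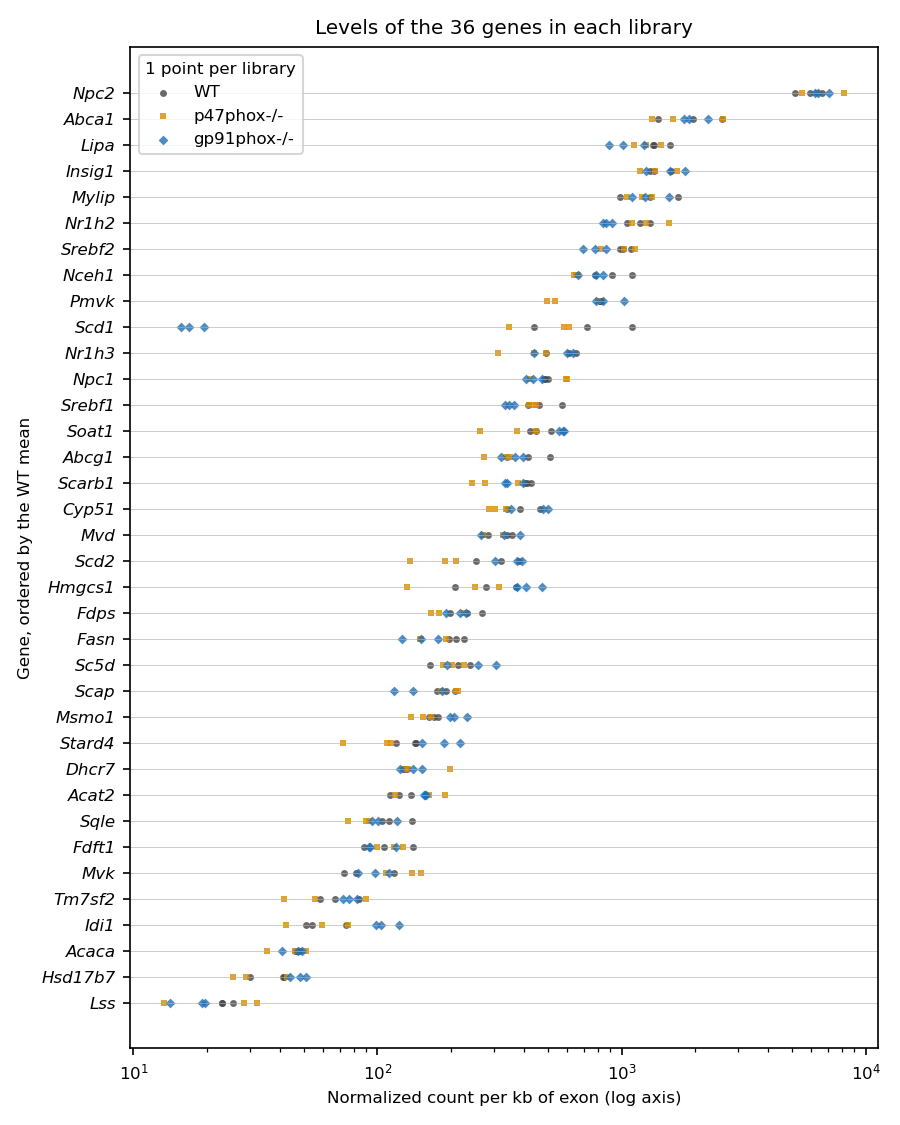
Normalized count per kilobase of exon (x axis, log scale) of each of the 36 genes (y axis, ordered by the WT mean), 1 point per library, coloured and shaped by genotype. Npc2 is at the top, Lss at the bottom, and Scd1 is the one gene whose gp91phox-/- points lie far from the others.

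The libraries of 2 genotypes did not overlap for 8 of 36 genes in p47phox-/- versus WT, or 22.2% of the list against 17.7% of all genes. All 8 were lower in p47phox-/-, where 8.49% of all genes were, and 0 were higher, against 9.25%. In the gp91phox-/- comparison with WT this held for 16 genes (44.4% against 33.3%), 7 higher (19.4% against 15.1%) and 9 lower (25% against 18.2%). Between the knockouts it held for 13 genes (36.1% against 30.9%), 10 higher in gp91phox-/- (27.8% against 13.6%) and 3 lower (8.33% against 17.3%).

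Of 72 further genes of sterol and fatty acid handling outside the list, 63 passed the filter. As X chromosome genes stood at 0 in every library, any of the 72 that lies there failed whatever its expression. In p47phox-/- versus WT, 0 of 63 were called with limma, where 1.12% of all genes were (14, or 22.2%, had an unadjusted p under 0.05, beside 15.02% of all genes; edgeR called 0 and DESeq2 6). In gp91phox-/- versus WT, 4 of 63 (6.35%) were called, near the 7.05% of all genes, and in gp91phox-/- versus p47phox-/- 9 of 63 (14.3% against 9.93%).

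Both Msr1 and Olr1, scavenger receptors of modified lipoproteins, were called higher in gp91phox-/- in each comparison. Msr1 was higher by 0.85 than in WT (limma adjusted p = 0.00187) and by 0.82 than in p47phox-/- (0.002123), and Olr1 by 1.33 (0.02179) and 1.55 (0.008048). Cd36, a fatty acid transporter and scavenger receptor, was lower in gp91phox-/- than in p47phox-/- by 1.21 on the log2 scale, with 19002, 12238 and 21741 normalized counts in p47phox-/- and 7396, 7705 and 7154 in gp91phox-/-, against 7926, 11743 and 7967 in WT. Lpl, the lipoprotein lipase, had 5274, 4384 and 4201 in p47phox-/-, 1223, 1368 and 1059 in gp91phox-/-, and 1271, 4470 and 2344 in WT, where WT replicate 2 was close to p47phox-/-. The knockouts differed by -1.92 (limma adjusted p = 0.003357).

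Other called genes of this set were Fabp5, the fatty acid binding protein (1.02), Elovl5, an elongase (0.62), Dgat1, which makes triglyceride (0.58), and Pnpla2, the triglyceride lipase (-0.72), all in gp91phox-/- versus p47phox-/-, and Acat1, a thiolase (0.68), and Plin2, which coats lipid droplets (-0.54), in gp91phox-/- versus WT. Pnpla2 lost its call when p47phox-/- replicates 2 and 3 were left out together (limma adjusted p = 0.209), and Plin2 in 13 of 23 alternatives (up to 0.166). Olr1, Msr1 and Lpl lost their call against p47phox-/- in the former setting (0.138, 0.0517 and 0.0614), whereas Cd36 kept it. Acat1 and Olr1 lost their calls against WT without WT replicate 1, without WT replicate 3, and without gp91phox-/- replicate 2 or 3. Fabp5, Elovl5 and Dgat1 were not called without gp91phox-/- replicate 2 and without p47phox-/- replicate 3.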

How the data were processed

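The 36 genes, the other lists and the tests were chosen with earlier results of these data known. RNA from a micro-scale column kit was sequenced from both ends, per the labels' protocols. The submitters' processing notes name bcl2fastq 2.19, Cutadapt, STAR 2.5.2b, DESeq2 and the build mm10. The strand and the annotation counted are not given in the sources used here. The signal the authors deposited is reads divided by a size factor per library (normalized counts). Multiplying back gave whole numbers for 100% of values, within 0.01, with factors of 1.05 to 1.66. Library totals were 31141107 to 52797368 reads.

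Log2(normalized count + 1) was fitted in limma 3.58.1 (R 4.3.3) with 1 model of 3 groups of 3 and a mean-variance trend, for genes with at least 10 in at least 3 libraries. edgeR 4.0.16 and DESeq2 1.42.0 on the recovered reads, other pseudocounts, filters, scalings, libraries and designs were alternatives. The fit was checked on simulated data. Genes called, and the member of each role with the greatest fold change, were given in every library. Coordinates and exon lengths are from GENCODE M21 on GRCm38/mm10. Windows of 50 bases measured sequence shared between coding sequences. A result is not reported here, but counts include it.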

Additional observations from a re-analysis of the deposited data

Results flagged for a closer look

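For 7 of the 36 genes the difference from WT in gp91phox-/- differed from that in p47phox-/-, or 19.4% against 9.93% of all genes. The test was limma, with a Benjamini-Hochberg adjusted p over 14404 genes under 0.05 and 3 libraries a group. The gp91phox-/- effect minus the p47phox-/- effect was -4.83 for Scd1 on the log2 scale (adjusted p = 1.964e-06). It was 1.01 for Scd2 (0.007006) and 0.93 for Stard4 (0.01369). It was 0.69 for Soat1 (0.0247), -0.57 for Nr1h2 (0.02692), 0.49 for Msmo1 (0.04224) and 0.90 for Idi1 (0.04588). For Scd2, Stard4, Soat1, Msmo1 and Idi1 the 2 estimated effects had opposite signs (p47phox-/- below and gp91phox-/- above WT), and for Nr1h2 the reverse. None of these effects was called against WT with limma in either knockout. Picking genes for a difference between the knockouts favours opposite signs. For each of these genes but Stard4, the 95% interval against WT held both signs in p47phox-/- or in gp91phox-/-. For Idi1 the p47phox-/- effect was only -0.04. The libraries of the knockouts did not overlap for any of the 7, nor for 30.9% of all genes tested. The 7 were picked by this same comparison, so the lack of overlap adds no support. Groups of 3 libraries were not tested for outlying samples.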

How the results depend on the processing

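No called gene changed direction in any alternative. Of the 7 genes called between the knockouts, Scd1 was called in 24 of 24 alternatives and Scd2 in 23. The count called in p47phox-/- versus WT, 0, became 2 with DESeq2, 1 without immunoglobulin, B cell and plasma cell genes, and 0 to 1 when 1 library was left out (1 without p47phox-/- replicate 2). The count in gp91phox-/- versus WT, 1, became 2 with a filter at 50, 3 with quantile normalization, 3 with only the groups compared, 7 with array weights and 4 with DESeq2, and was 1 to 5 when 1 library was left out (5 without p47phox-/- replicate 2, 2 without gp91phox-/- replicate 1). The count in gp91phox-/- versus p47phox-/-, 7, became 3 with only the groups compared, 2 without the mean-variance trend and 1 with p47phox-/- replicates 2 and 3 left out together (0 in p47phox-/- versus WT, as before), where the lone library is assumed to vary like the others. It was 2 to 9 when 1 library was left out: 2 without gp91phox-/- replicate 2, 3 without gp91phox-/- replicate 1, 4 without p47phox-/- replicate 3, 4 without gp91phox-/- replicate 3 and 9 without p47phox-/- replicate 2. TMM scaling gave 10, and the direction of the fatty acid group's median between the knockouts (-0.03) turned to 0.06; it was also above 0 with recomputed size factors (0.01) and without immunoglobulin, B cell and plasma cell genes (0.06). Apart from the settings that use fewer samples, the cause was not tested. The shares of all genes called in these settings are not given here. The changes in count therefore cannot be read as particular to the listed genes. Same-numbered libraries did not deviate together (correlations of -0.0398 to 0.0763), which cannot show whether the samples were handled in matched sets. With the replicate number as a block, 0, 1 and 5 genes were called in the 3 comparisons. Scd1 in gp91phox-/- rests on 86 to 137 reads a library, which limits how precisely its level there and its fold change are known. The gp91phox-/- libraries lay within 1.24-fold of each other, and the lowest WT library was 22.4-fold above the highest of them.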
